A study of Mus musculus with 12 samples.

Results

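Arc, the 3 Homer genes (Homer1, Homer2 and Homer3) and the 3 neuronal pentraxin genes (Nptx1, Nptx2 and Nptxr) were followed in auditory cortex of acute mouse brain slices. They are 7 of the 20989 gene loci listed in each library, were taken by gene symbol, and have 1 locus each. All 7 were measured in each of the 12 libraries and passed the filter on low values. The 6 C57bl6/J mice were 4 weeks of age. Coronal slices of 350 µm recovered for 15 min in choline chloride buffer, were divided at the midline and then lay for 45 min in artificial cerebrospinal fluid (aCSF). From each mouse, 1 hemisphere then spent 1 h in fresh aCSF (control) and the other spent 1 h in cocktail aCSF. The cocktail held 50 µM of the GABA receptor antagonist bicuculline and 50 µM of the acetylcholine analogue carbamoylcholine. It also held norepinephrine, dopamine and serotonin at 100 µM each, with 40 µM ascorbic acid. These agents were given together, so their contributions cannot be told apart. The methods of the study add a last hour in plain aCSF for both hemispheres, which the labels leave out. Poly-A RNA of the 6 control and 6 cocktail hemispheres was sequenced.

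Arc, the Homers and the neuronal pentraxins act at excitatory synapses. Arc is an immediate-early gene whose protein promotes the removal of AMPA-type glutamate receptors from the postsynaptic membrane. Homer proteins are scaffolds that tie group I metabotropic glutamate receptors to Shank proteins and to calcium release channels. Homer1 also gives a short transcript, Homer1a, known to be induced by neuronal activity, whose product lacks the coiled coil and loosens these links. Nptx1 and Nptx2 (Narp) encode secreted pentraxins that gather AMPA receptors, and Nptxr encodes the membrane-bound pentraxin that can anchor them. The comparison asks which of these genes changed with the cocktail.

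All values are FPKM (fragments divided by transcript length and library size) as deposited. The reads recovered from the FPKM intervals numbered 10601067 to 19768881 per control library (median 14924263) and 13544297 to 17643462 per cocktail library (median 15164166). The control library of mouse 1 was the deepest, had the lowest summed FPKM (290155 against 306085 to 321723 in the other control libraries) and stood apart in its profile, with a median chi-square distance per gene of 35.44 to the other control libraries, where these had 11.77 to 14.03. Its cocktail library was also the farthest in its group, at 19.59 against 13.27 to 16.42 for the others. This distance is taken on reads and grows with depth. Without mouse 1 the log2 fold changes of Arc and Nptx2 were 0.82 and 0.64 and both stayed called with limma. Fold changes without mouse 1 stand beside Homer1, Homer2 and Nptxr, and for the effector genes only the calls without it are given. The tissue label was checked with 48 markers in 9 lists, of which 46 had a locus that was tested and 0 were listed at 0 in all libraries. Control libraries had a summed FPKM of 1367 to 1512 for 8 excitatory neuron markers and of 485.5 to 546.5 for 7 inhibitory neuron markers, where cocktail libraries had 1292 to 1482 and 517.6 to 563.7. For 4 hippocampal markers the sum spread widely in both groups, between 4.888 and 28.46 in the controls and between 6.288 and 33.46 with the cocktail. The part of this spread in the results was not tested. Of the markers tested, 0 passed an adjusted p of 0.05 with limma in the model described next and 0 had an unadjusted p under 0.05, where 1.5% and 8.05% of all loci tested did, with the largest absolute log2 fold change in any of the lists at -0.20, for the microglia marker Cx3cr1. The inhibitory (7), oligodendrocyte (5), endothelial (4) and hippocampal (3) markers tested were all higher with the cocktail. Their median log2 fold changes were 0.08, 0.11, 0.04 and 0.14. The other lists held markers in both directions, with 3 excitatory markers higher and 5 lower.

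Of the 7 genes, 2 rose in the cocktail hemispheres, Arc and Nptx2. The test was limma on log2(FPKM + 1) with the mouse as a block, fitted over the 12032 loci that averaged 1 FPKM or more. With Benjamini-Hochberg adjustment at 0.05, 1.5% of all loci tested were called and 1.22% were called higher. Both genes were higher in the cocktail hemisphere of 6 of 6 mice, and 6.3% of all loci moved in 1 direction in all mice. Homer1, Homer2, Homer3, Nptx1 and Nptxr did not pass the test. In bulk tissue, a change in the number of cells that express a gene and a change in RNA per cell cannot be told apart.

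**Figure D1:**
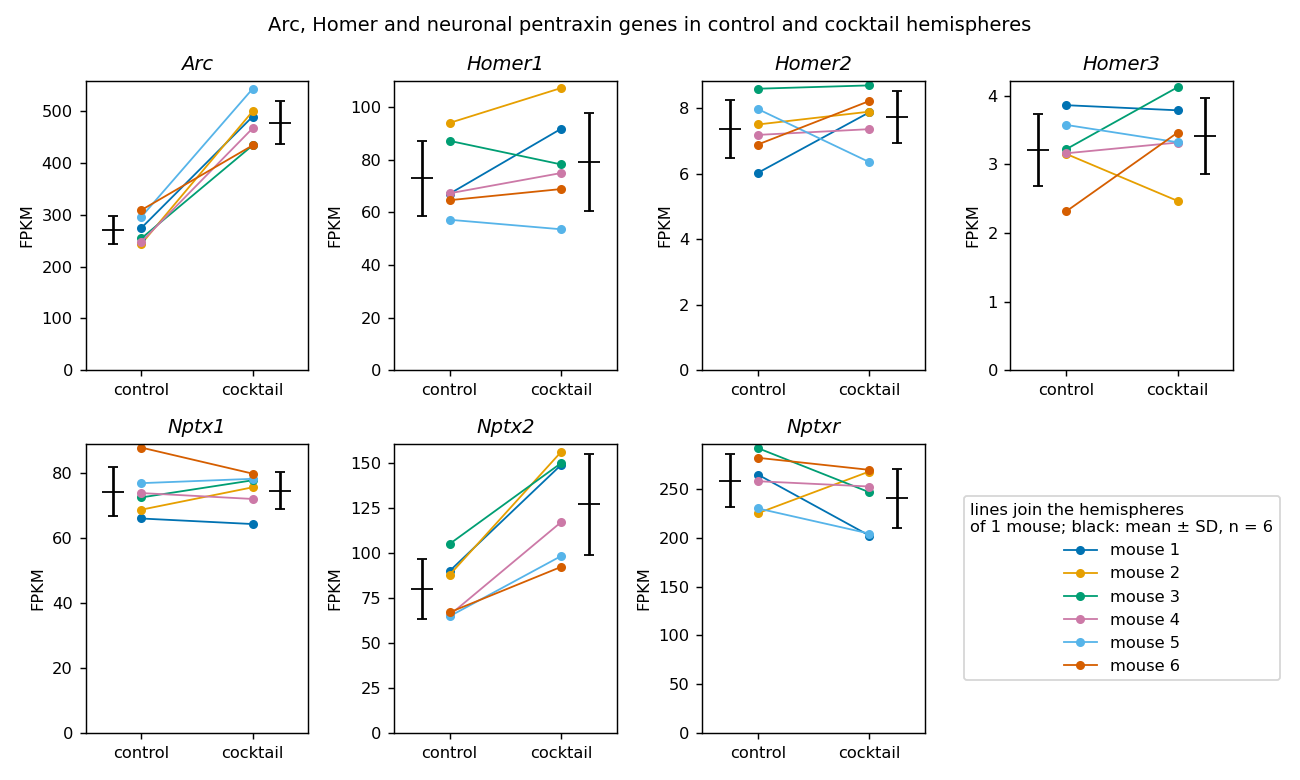
FPKM of each gene in the control and cocktail hemispheres, with a line for each of the 6 mice and the mean ± SD in black; each axis starts at 0. All 6 lines rise for Arc and for Nptx2, and lines cross or run flat for the other 5 genes.

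Arc lies on chromosome 15 of mm10 from 74669081 to 74672570, on the minus strand, and no exon of another gene in GENCODE M21 overlaps its exons. Its FPKM in control hemispheres was 243 at the lowest, 264 at the median and 309 at the highest. In cocktail hemispheres it was 434, 478 and 543. The lowest cocktail value thus lay above the highest control value. Groups without overlap, in either direction, were found for 1 of the 7 genes and for 0.914% of all loci tested. The means were 270.5 ± 27.0 and 477 ± 42.1 FPKM (SD, n = 6 each). Arc therefore changed by 0.82 on the log2 scale (standard error 0.063, 95% interval 0.68 to 0.96, adjusted p = 2.18e-05 from limma). Within mice, the rise on the log2 scale was 0.83 in mouse 1, 1.03 in mouse 2, 0.77 in mouse 3, 0.91 in mouse 4, 0.87 in mouse 5 and 0.49 in mouse 6. Mouse 6 combined the highest control value with a cocktail value at the bottom of its group. Flipping the signs of the 6 within-mouse differences (an exact two-sided permutation test) gave p = 0.03125, the smallest that 6 pairs allow. Between 10994 and 30453 reads per library stand behind these values. Ordered by log2 fold change, Arc was in place 16 of the 12032 loci.

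Nptx2 lies on chromosome 5 from 144545887 to 144557478, on the plus strand, with no exon overlap. In control hemispheres its FPKM was 64.9 at the lowest, 77.5 at the median and 105 at the highest, and in cocktail hemispheres 92.4, 133 and 156. The groups overlapped, because the control value of mouse 3 (105) exceeded the cocktail values of mice 5 and 6 (98.4 and 92.4). The means were 80.1 ± 16.7 and 127 ± 28.3 FPKM (SD, n = 6 each). Nptx2 therefore changed by 0.66 on the log2 scale (standard error 0.058, 95% interval 0.53 to 0.78, adjusted p = 6.46e-05 from limma). Without the mouse as a block, the same fold change had a standard error of 0.147 and an adjusted p of 0.0519 from limma, and Nptx2 was no longer called. The pairing matters here because levels differed between mice more than within them. The SD of log2(FPKM + 1) over mice was 0.29 in control and 0.33 in cocktail hemispheres, against 0.16 for the within-mouse differences. In both groups mice 1, 2 and 3 had higher Nptx2 than mice 4, 5 and 6, with 87.9 to 105 against 64.9 to 67.1 FPKM in control and 149 to 156 against 92.4 to 117 FPKM in cocktail hemispheres. The labels give no batch that separates these mice, and the split was seen in the values and was not tested. The within-mouse rises were 0.72, 0.82, 0.51, 0.83, 0.59 and 0.46 on the log2 scale in mice 1 to 6, and the exact sign-flip permutation test gave p = 0.03125.

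**Figure D2:**
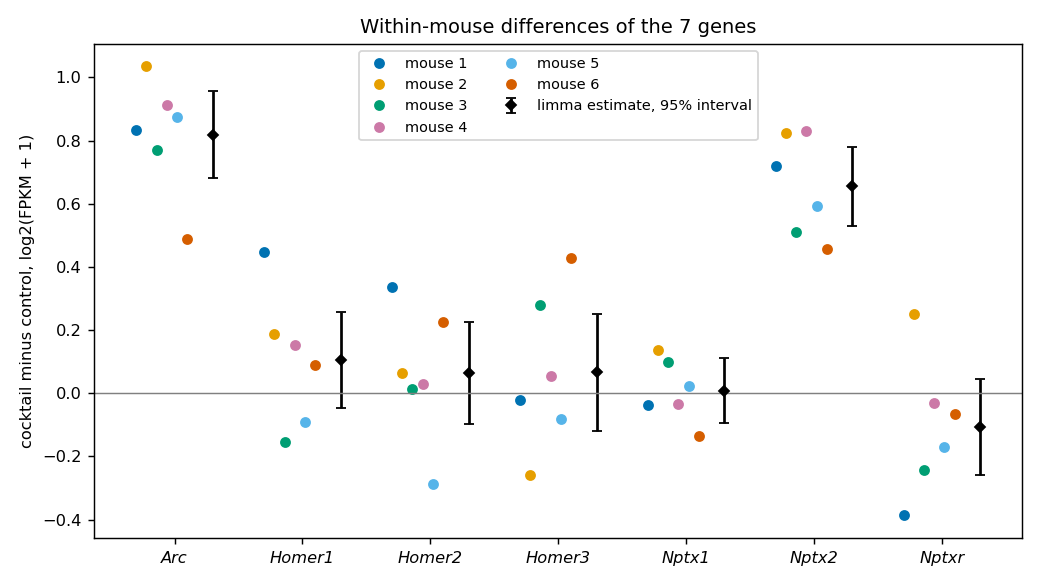
Within-mouse difference in log2(FPKM + 1), cocktail minus control, for each gene and mouse, with the limma estimate and its 95% interval in black. The 6 points of Arc (0.49 to 1.03) and of Nptx2 (0.46 to 0.83) lie above 0, and the intervals of the other 5 genes include 0.

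Arc rose by more than Nptx2 in each of the 6 mice, by 0.16 ± 0.10 on the log2(FPKM + 1) scale (SD, n = 6 mice, range 0.03 to 0.28, exact sign-flip permutation p = 0.03125). Differences in response were tested for 9 pairs of genes, and adjusted over these pairs this p became 0.05625. The other 4 pairs that set Arc or Nptx2 against a gene not called had the same pair of p-values and went in 1 direction in all 6 mice. Arc exceeded Homer1 by 0.71 ± 0.26 and Nptx2 exceeded Homer1 by 0.55 ± 0.18 (SD, n = 6). Nptx2 exceeded Nptx1 by 0.65 ± 0.16 and Nptxr by 0.76 ± 0.21 (SD, n = 6). So 0 of the 9 pairs passed 0.05 after adjustment. Each pair with Arc or Nptx2 was at 0.03125, the smallest p that 6 mice allow. Its adjusted p follows from how many of the 9 pairs reach that p. The remaining pairs set genes not called against each other and did not reach it. The count of pairs passing therefore cannot decide whether the responses differed.

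Homer1, on chromosome 13 from 93304495 to 93405129, had FPKM of 57.2, 67.1 and 94.0 (lowest, median and highest) in control and 53.6, 76.6 and 107 in cocktail hemispheres. The groups overlapped over nearly their whole range. The means were 72.9 ± 14.4 and 79.1 ± 18.6 FPKM (SD, n = 6 each). The log2 fold change was 0.11 with a 95% interval from -0.05 to 0.26 (adjusted p = 0.783 from limma), or from 0.968-fold to 1.195-fold. Homer1 was higher in the cocktail hemisphere of 4 of 6 mice, with within-mouse differences from -0.15 in mouse 3 to 0.45 in mouse 1. Without mouse 1 the log2 fold change was 0.04. The deposited value joins the short Homer1a transcript and the long transcripts in 1 FPKM, so a rise of Homer1a alone could not be read from it. Homer1 differed between the control hemispheres of the mice more than most genes did. The SD of its log2(FPKM + 1) over the control hemispheres was 0.27, above that of 93.9% of the 6099 loci that averaged 10 FPKM or more, whose median SD was 0.13. For Nptx2 that share was 95.7%, for Arc 58.4%. The within-mouse differences of Homer1 also spread widely, with an SD of 0.22, above that of 85.9% of the same loci. There Nptx2 was above 65.2% and Arc above 76.2%.

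Homer2 and Homer3 were much lower. Homer2, on chromosome 7 from 81600481 to 81706925, had 6.02, 7.34 and 8.59 FPKM (lowest, median and highest) in control and 6.35, 7.88 and 8.69 in cocktail hemispheres. Its log2 fold change was 0.06 (95% interval -0.10 to 0.23, adjusted p = 0.891 from limma). It was higher in 5 of 6 mice, with mouse 5 at -0.29, and its log2 fold change was 0.01 without mouse 1 and 0.13 without mouse 5. Homer3, on chromosome 8 from 70282999 to 70294361, had 2.31, 3.19 and 3.86 FPKM in control and 2.47, 3.39 and 4.12 in cocktail hemispheres. Its log2 fold change was 0.07 (95% interval -0.12 to 0.25, adjusted p = 0.901 from limma), with 3 mice higher and 3 lower. Only 62 to 254 reads per library stand behind Homer3, the fewest of the 7 genes. Exons of Homer3 overlap those of Ddx49 on the opposite strand, and exons of Homer2 those of the predicted gene Gm44570. The reads were strand specific, and the strand setting of the FPKM step is not given in the sources used here. Ddx49 itself had 11.5 ± 0.586 FPKM in control and 11.6 ± 0.753 FPKM in cocktail hemispheres (SD, n = 6 each). Homer1 made up 87.1 ± 2.19% of the summed Homer FPKM in control and 87.3 ± 2.41% in cocktail hemispheres (SD, n = 6 each). The within-mouse differences of this share ranged from -2.14 to 1.57 percentage points (exact sign-flip permutation p = 0.78125).

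The windows before the Homer gene starts are shown because Homer1 is known for an activity-induced transcript, so that its upstream letters can be read beside those of Homer2. RefSeq promoter windows (GRCm38.p6, the assembly of mm10) matched Homer1, Homer2 and Homer3. Arc, Nptx1, Nptx2 and Nptxr had no entry. The 250 bases before the annotated start are given 5′ to 3′ on the strand of the gene, at chr13:93303507-93303756 (plus strand) for Homer1 and at chr7:81706926-81707175 (minus strand) for Homer2. The window of Homer1 ends before the position at which the deposited files start the gene (93304495), and GENCODE starts the gene at 93299635. The window of Homer2 also lies within the GENCODE gene, which starts at 81707527 on the minus strand. Positions are counted from the RefSeq start and would differ with another start. Capitals mark matches on either strand to the core TGACG of the cAMP response element or to the Egr site GCGNGGGCG.
Homer1: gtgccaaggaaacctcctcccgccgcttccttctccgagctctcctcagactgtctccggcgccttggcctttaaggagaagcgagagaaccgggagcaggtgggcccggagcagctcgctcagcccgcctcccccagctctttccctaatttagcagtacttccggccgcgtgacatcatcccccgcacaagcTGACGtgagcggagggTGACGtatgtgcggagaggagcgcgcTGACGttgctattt
Homer2: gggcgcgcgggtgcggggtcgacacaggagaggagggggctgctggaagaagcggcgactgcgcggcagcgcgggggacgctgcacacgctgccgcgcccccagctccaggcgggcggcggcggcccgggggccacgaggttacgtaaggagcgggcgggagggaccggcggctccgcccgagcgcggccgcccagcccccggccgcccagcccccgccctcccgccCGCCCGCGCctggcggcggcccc
Homer1 held 3 matches to TGACG, at -56 to -52, -40 to -36 and -14 to -10 from the start, and at least 1 such match is held by 17.77% of all 32851 windows of this length. Homer2 held 1 Egr match, at -23 to -15, against 4.7% of all windows. Its window had a GC content of 83.2%, against 62.4% for Homer1, 68.0% for Homer3 and a median of 52.4% over all windows. Homer3 had no match to any of the motifs searched. The full element TGACGTCA, which contains the core and is held by 1.55% of all windows, had no match in these 3 windows. The same was true of the AP-1 site TGANTCA (6.75% of all windows), the CArG box (1.47%) and the MEF2 site (2.92%). A match is a description of letters and not a measured site.

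Of the pentraxins, only Nptx2 passed the test. Nptx1, on chromosome 11 from 119538719 to 119547820, had 66.0, 73.2 and 87.9 FPKM (lowest, median and highest) in control and 64.3, 76.7 and 79.9 in cocktail hemispheres. Its log2 fold change was 0.01 with a 95% interval from -0.09 to 0.11 (adjusted p = 0.986 from limma), the narrowest interval of the 7 genes, and 3 mice were higher and 3 lower. Nptxr, on chromosome 15 from 79786351 to 79804709, had 225, 261 and 292 FPKM in control and 202, 250 and 270 in cocktail hemispheres. It was lower in the cocktail hemisphere of 5 of 6 mice, with a log2 fold change of -0.11 (95% interval -0.26 to 0.05, adjusted p = 0.783 from limma). Mouse 2 went the other way (0.25), and mouse 1 had the lowest difference (-0.39). The log2 fold change of Nptxr was -0.05 without mouse 1 and -0.18 without mouse 2.

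Nptxr shares exons on the same strand with Npcd, an overlapping transcript unit that the files list apart, so reads can be divided between them in an uncertain way. Npcd had 27.65 ± 8.46 FPKM in control and 32.4 ± 4.90 FPKM in cocktail hemispheres (SD, n = 6 each, log2 fold change 0.26, adjusted p = 0.713 from limma). In mouse 1 Npcd stood at 17.8 FPKM in the control and 34.3 FPKM in the cocktail hemisphere, while Nptxr stood at 265 and 202 FPKM. With both summed, a choice made after seeing the data, the log2 fold change was -0.07 (adjusted p = 0.857 from limma).

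Nptx2 made up a larger part of the pentraxin transcripts in the cocktail hemisphere of each mouse. It was 19.4 ± 3.31% of the summed FPKM of Nptx1, Nptx2 and Nptxr, without Npcd, in control hemispheres and 28.7 ± 5.30% in cocktail hemispheres (SD, n = 6 each). This share, which does not depend on the scaling between libraries, was higher in 6 of 6 mice, by 9.32 ± 2.94 percentage points (exact sign-flip permutation p = 0.03125, adjusted over the 4 family shares and sums 0.125). In recovered reads, which are not divided by transcript length, the difference was 5.64 ± 1.93 points (exact permutation p = 0.03125). The gain was 14.5 points in mouse 1 and 5.55 points in mouse 6, with the other mice between these. The summed pentraxin FPKM was 413 ± 36.7 in control and 442 ± 42.0 in cocktail hemispheres (SD, n = 6 each) and was higher in 5 of 6 mice (exact sign-flip permutation p = 0.125).

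The levels were put in order within each group. In control hemispheres the order by mean FPKM was Arc (270.5), Nptxr (259), Nptx2 (80.1), Nptx1 (74.3), Homer1 (72.9), Homer2 (7.36) and Homer3 (3.21). Arc and Nptxr did not differ beyond their spread (Arc higher in 4 of 6 libraries, exact sign-flip permutation p = 0.5), nor did Nptx2 and Nptx1 (Nptx2 higher in 3 of 6 libraries) or Nptx1 and Homer1 (p = 0.8125 by the same exact permutation test). The other 3 neighbours had the same order in 6 of 6 libraries (exact permutation p = 0.03125, adjusted over the 6 neighbour pairs 0.0625). In cocktail hemispheres Arc (477) stood above Nptxr (240.5) in 6 of 6 libraries. Nptx2 (127) stood above Homer1 (79.1) in 6 of 6, and the lowest Nptx2 value (92.4) was above the highest Nptx1 value (79.9). Of the 6 neighbour pairs in the cocktail, 5 held in all libraries (exact permutation p = 0.03125, adjusted 0.0375). Only Homer1 and Nptx1 (74.7) did not differ beyond their spread (p = 0.78125 by the exact permutation test). The adjusted values cannot be compared between the groups, because they follow from how many pairs reach the smallest p. Homer2 exceeded Homer3 by 0.99 on the log2(FPKM + 1) scale in both groups. The order was set by the means of the same libraries, so these p-values are not a separate test of it. With the mean FPKM taken over all 12 libraries of both groups, Arc was above 99.5% of all loci tested. Nptxr was above 98.8%, Nptx2 above 95.5%, Homer2 above 40.8% and Homer3 above 19.2%.

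**Figure D3:**
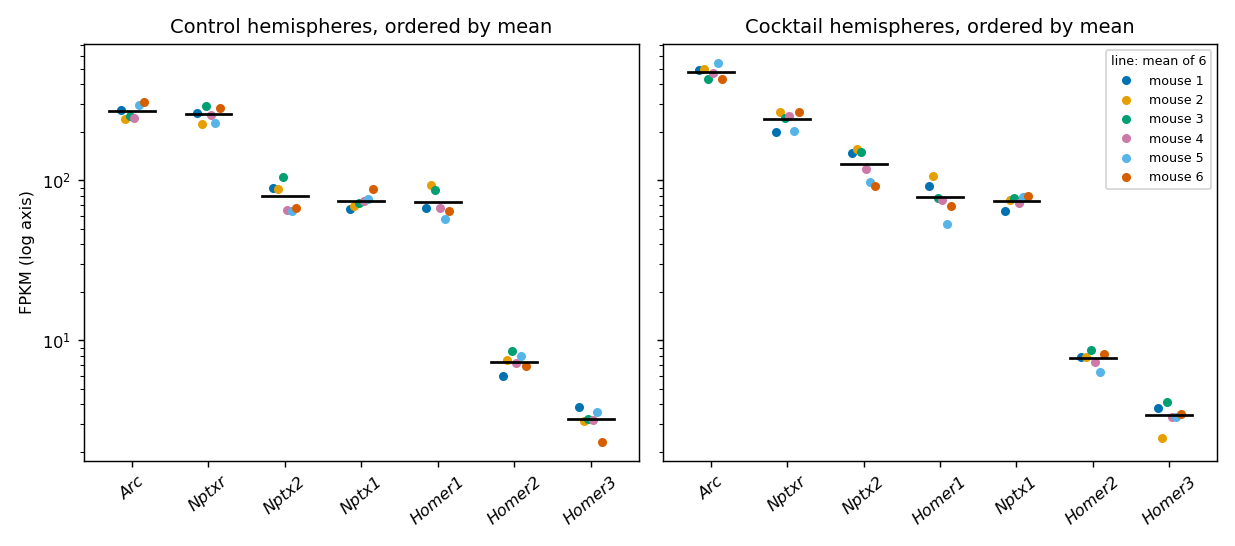
FPKM on a log axis in each library, with the genes ordered by their mean in control (left) and cocktail (right) hemispheres and a line at the mean of 6. Nptx2, Nptx1 and Homer1 overlap in control hemispheres, and Nptx2 lies above Nptx1 in all cocktail hemispheres.

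Genes of the proteins that Arc, Homer and the pentraxins work with were examined as well. Lists of 14 Homer ligands, 11 Arc partners, 6 pentraxin partners and 8 other postsynaptic scaffolds were used, and of the 38 loci tested from them 0 passed an adjusted p of 0.05 with limma, 0 with voom, and 3 had an unadjusted p under 0.05. These counts are near those of all loci tested, of which 1.5% were called and 8.05% had an unadjusted p under 0.05. Their median log2 fold changes were -0.01, 0.00, 0.02 and -0.04, beside 0.01 for all loci tested. Among the Homer ligands, Shank2, a scaffold of the postsynaptic density, had the largest value at -0.12 (36.9 ± 3.14 and 33.9 ± 4.204 FPKM, SD, n = 6 each, adjusted p = 0.458 from limma). Among the Arc partners it was Baiap2, an actin-binding adaptor, at 0.14 (138 ± 6.87 and 152 ± 12.9 FPKM, SD, n = 6 each, adjusted p = 0.446 from limma). Gria1, the AMPA receptor subunit GluA1, had 0.10 (adjusted p = 0.876 from limma), and Dlgap3, a scaffold that binds PSD-95 and Shank, had -0.11 (adjusted p = 0.569 from limma).

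Immediate-early genes that encode other effector proteins, and not transcription factors, were examined beside Arc and Nptx2. Of 11 such genes (12 loci tested, since Syne1 has 2), 6 were called higher and 0 lower, where 1.22% of all loci tested were called higher. The median over the 12 loci was 0.31 on the log2 scale. This list was put together with earlier results of these data known, and some of its genes had been seen to rise. Ptgs2 (cyclooxygenase-2) had the largest log2 fold change at 1.04, from 21.1 ± 4.19 to 44.0 ± 3.58 FPKM (SD, n = 6 each, adjusted p = 0.000119 from limma). Rgs2, a regulator of G protein signalling, rose from 31.3 ± 2.43 to 49.8 ± 5.84 FPKM (log2 fold change 0.65), close to the value of Nptx2. The protein kinase gene Plk2 rose from 99.98 ± 9.43 to 144 ± 13.5 FPKM (log2 fold change 0.52). Bdnf (neurotrophin, 0.35), Plat (tissue plasminogen activator, 0.31) and Pcdh8 (protocadherin, also called arcadlin, 0.31) were called as well, with adjusted p of 0.0338, 0.00989 and 0.0346 from limma. All 6 were higher in 6 of 6 mice. The calls of Bdnf and Pcdh8 were lost when mouse 1, 2, 3, 4 or 6 was left out and were kept only without mouse 5. Plat was lost as well without mouse 4. Without the mouse as a block, Ptgs2, Rgs2 and Plk2 were the 3 called. Bdnf and Pcdh8 were also not called without the filter on low values, nor was Pcdh8 with voom on the recovered reads. Inhba (0.36), Vgf (0.24), Rheb (0.21), Nrn1 (0.10) and Syne1 (-0.02 and 0.05) did not pass.

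**Figure D4:**
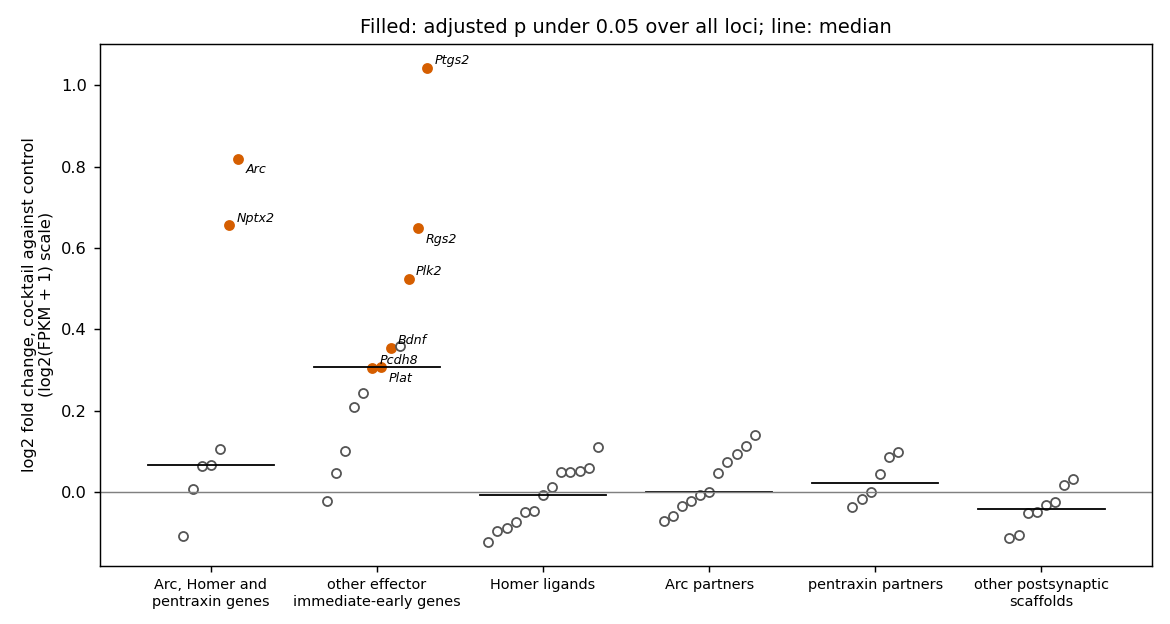
Log2 fold change of each gene on the log2(FPKM + 1) scale for Arc, the Homers and the pentraxins and for 5 lists of related genes, filled where the adjusted p was under 0.05, with a line at each median. The called genes are Arc, Nptx2 and 6 of the other effector genes, and the 4 lists of partners and scaffolds stay between -0.12 and 0.14.

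The loci whose pattern over the 12 libraries was most like that of Arc were Dusp5, Dusp6 and Nr4a1. Likeness was the root mean square distance of log2(FPKM + 1), centred on each gene's mean, among those 6099 loci. It was 0.06 for Dusp5, 0.07 for Dusp6 and 0.08 for Nr4a1, where Arc itself had a root mean square of 0.43 about its mean. The phosphatase genes Dusp5 and Dusp6 had log2 fold changes of 0.81 and 0.82, and the nuclear receptor gene Nr4a1 had 0.84. No locus came as near to Nptx2. Its nearest were Bdnf at 0.18, Fosl2 at 0.20 and Egr3 at 0.21 (0.43 for Nptx2 itself). The nearest to Homer1 were Dio2 at 0.10, Klf9 at 0.15 and Cers6 at 0.15 (0.29 for Homer1 itself), none of them called, with log2 fold changes of 0.11, 0.04 and -0.01. These distances are a description over libraries that share mice and treatment.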

How the data were processed

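Per the labels and the study's methods, reads of 50 bp matching ribosomal RNA were taken out with BWA 0.6.1. The others were placed on mm10 by TopHat 1.4.1, each at 1 position, and FPKM came from Cufflinks 1.3.0 with bias correction. The FPKM values and their confidence bounds were deposited by the authors, 1 file per hemisphere. The authors' series table, not used here, holds their own DESeq2 1.6.3 comparison (mean counts, fold changes, p-values) and group means.

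Here, limma 3.58.1 (R 4.3.3) was fitted to log2(FPKM + 1) of the loci that averaged 1 FPKM or more, with terms for treatment and mouse, a variance trend and Benjamini-Hochberg adjustment at 0.05. This scale understates changes of low genes. For paired values the signs of the differences were flipped in all ways (exact permutation test, two-sided). Reads behind an FPKM were taken from its interval, read as 2 Poisson standard deviations, of which 82.8% of 36412 values under 20 came out whole within 0.05. They are approximate for genes with several transcripts and cover counting error only. Exon overlaps are from GENCODE M21. Plots used matplotlib 3.10.9 under Python 3.11.15.

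Libraries are paired by the mouse named in the labels. Deviations from the group means correlated at 0.216 to 0.406 within the 6 mice (median 0.337) and at -0.42 to 0.445 between different mice (30 pairs, median -0.071), so the ranges overlap. No library was a copy of another, with a chi-square distance per gene of at least 7.1 within groups. The fit was tested on simulated data. The genes and lists were chosen with earlier results of these data known. The genes named are the 7 genes, the called genes of each list or, with none called, the one with the largest change, and the 3 nearest patterns of Arc, Homer1 and Nptx2. Npcd, Ddx49, Cx3cr1 and the uncalled effector genes were named after their values were seen.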

Additional observations from a re-analysis of the deposited data

How the results depend on the processing

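Over 14 other settings of the model, the log2 fold change of Arc lay between 0.74 and 0.89 with adjusted p of at most 0.00169 from limma, and Arc was called in all of them. Nptx2 lay between 0.59 and 0.70 and lost its call only without the replicate block (0.66, adjusted p = 0.0519 from limma). The block changed the call of no other gene of the 7. Homer1 (0.04 to 0.16), Homer2 (0.01 to 0.13), Homer3 (-0.01 to 0.13), Nptx1 (-0.05 to 0.04) and Nptxr (-0.22 to -0.05) were called in none of these settings, of which the filter at a mean of 5 FPKM gave no value for Homer3. Of all loci, 180 were called, 88 without the replicate block, 118 with voom on the recovered reads, and 104 (without mouse 4) to 183 (without mouse 6) with each mouse left out. The filter at 5 FPKM called 131 loci, 124 of them higher, where 147 of the 180 were higher. Of the other effector genes 6 were called, and 3 without the replicate block. Without the filter on low values 4 were called, and with voom on the recovered reads 5. With each mouse left out, 3 (without mouse 4) to 6 (without mouse 5) were called, and 4 without any of the other mice. The cause was not tested. The Nptx2 share rose by 5.64 points in recovered reads and by 8.29 to 10.1 points with each mouse left out, a value only, since 5 mice cannot give a p under 0.0625. A pseudocount of 0.1 left 0 of 9 pairs of genes and 5 of 12 neighbour pairs past 0.05 after adjustment, as before. Depth limits Homer3, with 62 to 254 reads per library.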
